A study of Mus musculus with 2 samples.

Results

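The 8 genes described here make, move, break down and sense GABA (gamma-aminobutyric acid), the main inhibitory transmitter of the adult brain. They were chosen by function, not by their values, though earlier results of these data were known. Gad1 and Gad2 stand for synthesis, Slc32a1 and Slc6a11 for transport, Abat and Aldh5a1 for breakdown, and Gabbr1 and Gabbr2 for the GABA-B receptor. All 8 were found among the 55536 genes of the deposited tables, of which 22015 are nuclear protein-coding genes. Total RNA was measured in tissue labelled as a layer of the hippocampus of male B6CASTF1/J mice, F1 hybrids between C57BL/6J and CAST/EiJ, aged 18 to 20 months and with no treatment named in the labels. The series has 1 group with 2 biological replicates, called replicate 1 and replicate 2. Each is a tissue sample of its own, both point to the same donor entry, and nothing in the labels says whether they came from separate animals, so the spread between them may be technical.

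Inhibitory neurons make GABA from glutamate with 2 related glutamate decarboxylases. The product of Slc32a1 loads it into vesicles, and transporters in the membranes of neurons and astrocytes take it up again after release. Inside mitochondria, the enzymes encoded by Abat and Aldh5a1 convert it to succinate for the citric acid cycle. The GABA-B receptor is a G protein-coupled receptor made of 2 different subunits: the Gabbr1 product binds GABA, and the Gabbr2 product couples to the G protein and is needed for the pair to reach the cell surface.

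For 2 of the genes the level depends on which annotated transcript is counted, so the sequences where those transcripts part are given first, all in mm10 (GENCODE M21 transcripts, plus strand, coding exons unless stated). Gabbr1 has a long receptor form of 960 amino acids (transcript Gabbr1-201) and a short-start form of 844 amino acids (Gabbr1-203), known as GABA-B1a and GABA-B1b. Their annotated starts are 4665 bases apart; the long form has 493 coding bases of its own, the short form 145, and the 2387 coding bases that follow are shared. The first line below is spliced over chr17:37048568-37051028 and the second runs without a break over chr17:37050854-37051028, from the start codon of the short form. Capitals mark the first shared bases.
Gabbr1-201: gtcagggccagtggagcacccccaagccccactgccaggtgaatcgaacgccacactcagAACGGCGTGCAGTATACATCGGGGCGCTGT
Gabbr1-203: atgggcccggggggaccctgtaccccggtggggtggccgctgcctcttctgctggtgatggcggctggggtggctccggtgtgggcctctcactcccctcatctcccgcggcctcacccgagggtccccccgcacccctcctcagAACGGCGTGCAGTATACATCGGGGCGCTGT

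Another Gabbr1 product has 229 amino acids and ends before the part of the receptor that spans the membrane. Transcript Gabbr1-209 shares 472 coding bases with Gabbr1-201, to the end of a coding exon, and then runs on for 215 more into what is intron in the long form, ending at a TAG stop. The spliced line lies over chr17:37048577-37051007 and the line that runs on over chr17:37048577-37048696. Capitals mark the last shared bases.
Gabbr1-201: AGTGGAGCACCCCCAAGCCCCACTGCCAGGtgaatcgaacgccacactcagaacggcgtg
Gabbr1-209: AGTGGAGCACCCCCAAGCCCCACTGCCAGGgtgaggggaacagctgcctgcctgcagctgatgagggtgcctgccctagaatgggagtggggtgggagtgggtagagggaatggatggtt

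Gad1 also has an early-ending product, of 223 amino acids, which stops short of the lysine that carries the cofactor. Transcript Gad1-205 shares 635 coding bases with the 593-amino-acid transcript Gad1-201 and then uses another exon, with 34 coding bases of its own to a TGA stop. The lines lie over chr2:70579172-70585863 and chr2:70579172-70584453, both spliced, with the shared bases in capitals.
Gad1-201: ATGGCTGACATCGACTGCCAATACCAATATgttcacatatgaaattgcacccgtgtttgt
Gad1-205: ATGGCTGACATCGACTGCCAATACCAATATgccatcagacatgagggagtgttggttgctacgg

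The decarboxylases are paralogs, so the similarity of their RNA bears on whether reads can be told apart. The windows around the codon of the lysine that holds the cofactor pyridoxal phosphate, codon 404 of Gad1 and 396 of Gad2, are shown with that codon in capitals (chr2:70591166-70593486 and chr2:22669761-22673998, spliced). Of these 60 bases, 47 are identical, and the longest identical run between the whole Gad1-201 and Gad2-201 transcripts is 17 bases.
Gad1-201: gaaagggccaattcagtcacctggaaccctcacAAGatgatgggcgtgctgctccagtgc
Gad2-201: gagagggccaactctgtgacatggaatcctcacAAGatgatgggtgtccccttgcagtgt

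Each of the 8 genes had at least 1 TPM (a level corrected for transcript length and scaled to the library) in both libraries, a level that 57.5% of nuclear protein-coding genes reached. Gabbr1 was the highest with 270.4 TPM in replicate 1 and 282 TPM in replicate 2, rank 153 by mean level. Gad1 followed with 149.6 and 152 TPM, then Gabbr2 with 80.02 and 87.1 TPM and Abat with 53.0 and 56.9 TPM. Below them came Gad2 with 33.8 and 37.2 TPM, Slc6a11 with 34.1 and 35.4 TPM, Slc32a1 with 28.1 and 30.2 TPM, and Aldh5a1 with 24.5 and 26.7 TPM. The libraries overlapped for 1 pair of neighbours in this order, Gad2 and Slc6a11. For every other pair, both libraries of the higher gene were above both of the lower one. The order holds for the sum over all annotated transcripts of each gene, in the first of 2 deposited quantifications.

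**Figure D1:**
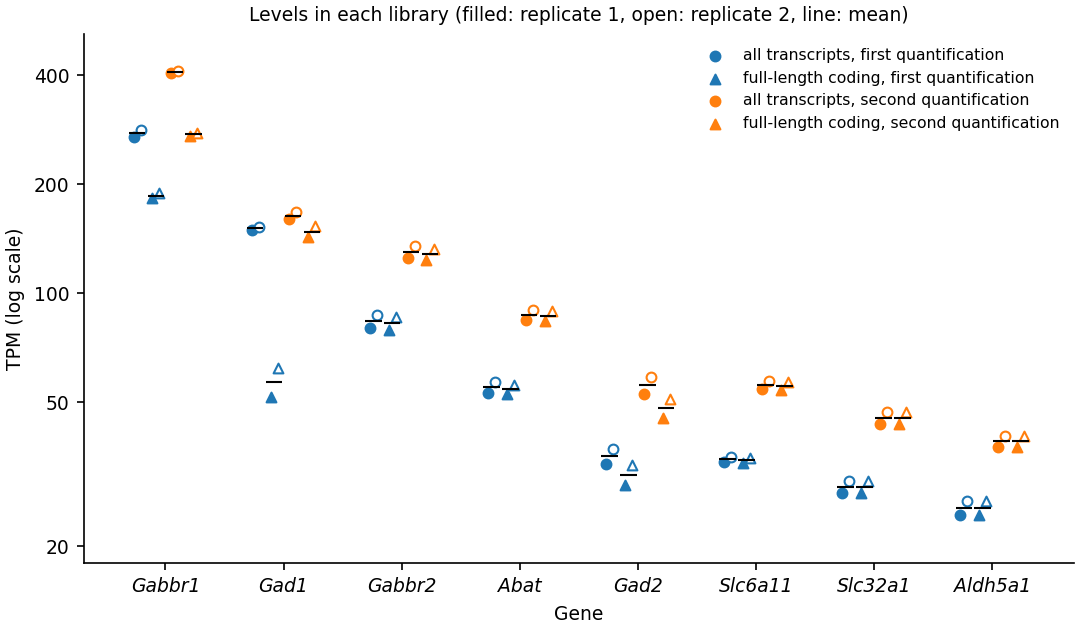
Level of each gene in TPM (log axis) in replicate 1 (filled) and replicate 2 (open), with the mean as a line. Circles are sums over all transcripts. Triangles are sums over complete coding transcripts whose product is at least 80% as long as the gene's longest. The first quantification is in blue and the second in orange. In the first quantification Gad1 drops from 150.8 to 56.9 TPM when only its full-length transcript is counted, while Slc32a1 and Aldh5a1, with 1 transcript each, stay where they are.

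Counting only complete coding transcripts whose product is at least 80% as long as the gene's longest changed the place of Gad1. By that measure Gabbr1 stood at 186 ± 4.59 TPM (SD, n = 2), Gabbr2 at 82.5 ± 4.97, Gad1 at 56.9 ± 7.37, Abat at 54.3 ± 2.31, Slc6a11 at 34.6 ± 0.813, Gad2 at 31.6 ± 2.87, Slc32a1 at 29.1 ± 1.52 and Aldh5a1 at 25.6 ± 1.55 TPM. The libraries of Gad1 then overlapped those of Abat, and the libraries of Gad2 those of Slc32a1. In the second quantification the same measure put Gad1 at 147.7 ± 7.47 TPM, again second to Gabbr1 at 274 ± 3.73 TPM and above Gabbr2 at 127.9 ± 6.56 TPM.

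Markers of the cells in which these genes are known to act were read in the same libraries. All 12 interneuron markers listed had at least 1 TPM, among them Sst with 167 and 191 TPM and Pvalb with 24.2 and 27.6 TPM, as did all 6 astrocyte markers and all 6 markers of hippocampal fields. So did markers of neighbouring tissue, 4 of 4 for thalamus, 5 of 5 for meninges, 4 of 6 for striatum and 3 of 6 for choroid plexus, beside 57.5% of nuclear protein-coding genes, so this count does not set the hippocampal lists apart. In bulk tissue, fewer cells of a type and less RNA per cell cannot be told apart. The libraries held 34563482 and 32370292 expected counts over genes, so that a count of 0 allows up to 0.0868 and 0.0927 CPM (counts scaled to library size). The libraries differed in RNA of the choroid plexus, the vascular tissue with its own epithelium that projects into the ventricle: the sum of its 6 markers was 36.6 TPM in replicate 1 but 696 TPM in replicate 2, and Ttr alone had 29.9 and 672 TPM. Markers of striatum summed to 32.7 and 36.3 TPM, those of thalamus to 36.1 and 32.4 TPM, and those of meninges to 43.6 and 54.7 TPM.

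Gad1, whose enzyme supplies most of the brain's GABA, exceeded Gad2, whose enzyme is concentrated at nerve terminals, in both libraries and by every measure used, but the size of the difference varied with the measure. Over all transcripts the Gad1 level was 4.26 ± 0.238 times that of Gad2 (SD of the within-library ratio, n = 2), in the second quantification 2.94 ± 0.132 times. With full-length transcripts only, the ratio was 1.80 ± 0.0697 in the first quantification and 3.07 ± 0.0997 in the second. Gad1 (ENSMUSG00000070880.10) lies at chr2:70553072-70602014 on the plus strand, and Gad2 (ENSMUSG00000026787.3) at chr2:22622205-22693874 on the plus strand.

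The 2 quantifications gave Gad1 nearly the same number of reads and divided them differently among its 8 transcripts. Gad1 had 7957 and 7876 expected counts in the first and 8389 and 8167 estimated counts in the second, a mean ratio of 1.05, the lowest of the 8 genes, whose highest was 1.12 for Abat. In TPM, however, the second gave Gad1 1.08 times the first, against a median of 1.63 over 12660 genes with at least 1 TPM (quartiles 1.51 and 1.83). Only 1.95% of those genes had a lower ratio than Gad1, while the other 7 genes had ratios between 1.47 for Gabbr1 and 1.61 for Slc6a11. The mean effective length over which Gad1 reads were divided was 2120 and 2245 bases in the first quantification and 2802 and 2854 bases in the second. For Gad1 alone among the 8 was this length greater in the second.

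**Figure D2:**
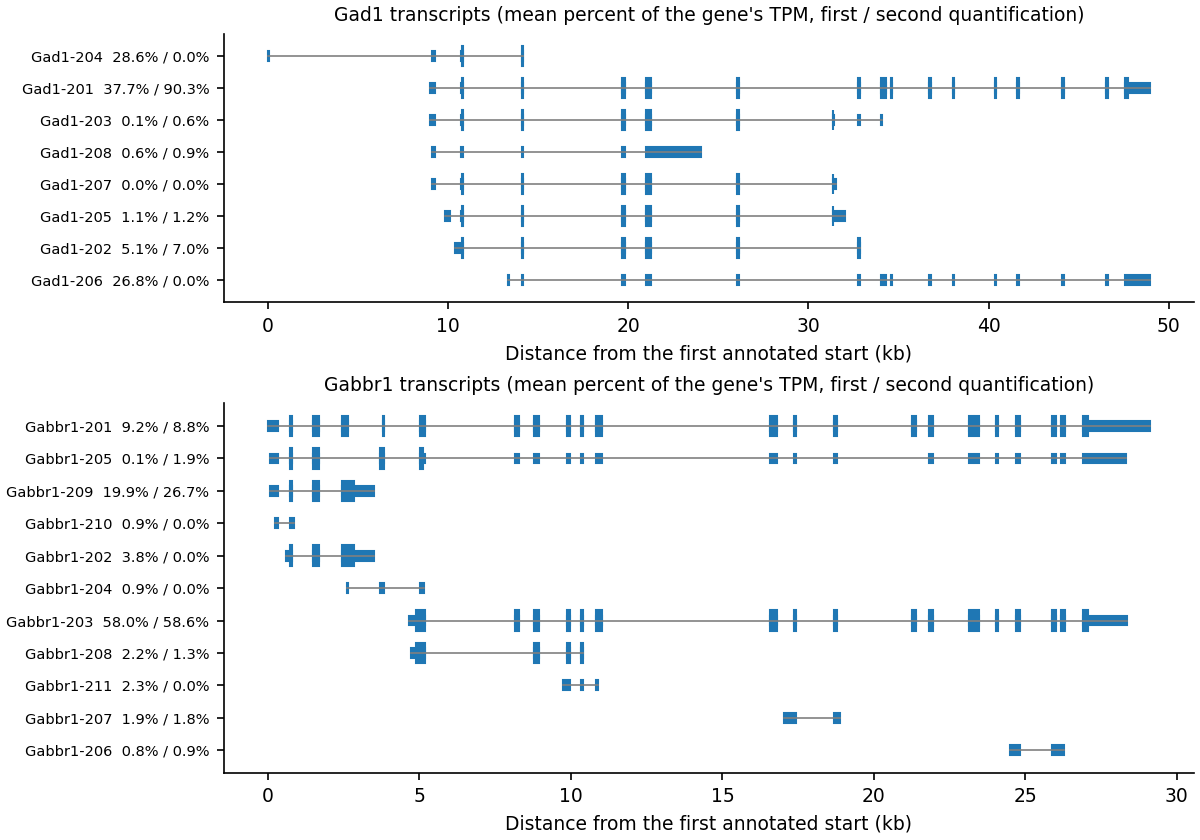
Annotated transcripts of Gad1 and Gabbr1 by distance from the first annotated start in kb, with exons as boxes, their coding parts as taller boxes and introns as lines. The mean percent of the gene's TPM in the first and second quantification stands beside each name: Gad1-206 overlaps Gad1-201 over most of its length and holds 26.8% in one and 0.0% in the other.

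Gad1-201, which encodes the whole enzyme, had 51.7 TPM in replicate 1 and 62.1 TPM in replicate 2 in the first quantification, 34.6% and 40.9% of the gene. In the second it had 142 and 153 TPM, 89.0% and 91.6% of the gene. The shares did not overlap between the quantifications. Next by reads in the first quantification was Gad1-206, a processed transcript of 2996 bases with no annotated coding sequence, of which 97.4% lies in exonic bases of Gad1-201 and 77 bases are found in no other Gad1 transcript. It received 3012 and 2638 expected counts, 37.9% and 33.5% of the gene's, with a posterior SD of 221 and 244 counts, and 41.4 and 39.5 TPM. In the second quantification its estimated count rounded to 0 in both libraries.

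Gad1-204 had a small share of the reads and a large share of the TPM. This fragment of 398 bases, annotated with an incomplete end and 42 amino acids, took 4.19% and 3.67% of the gene's expected counts but 29.7% and 27.5% of its TPM, with 44.4 and 41.9 TPM. Of its bases, 52 belong to no other Gad1 transcript. The second quantification listed it at 0 in both libraries. Gad1-202, also incomplete, with 249 amino acids, had 9.51 and 5.71 TPM in the first and 13.1 and 9.75 TPM in the second. The 223-amino-acid product whose end is shown above held 1.08% ± 0.0737 of Gad1 TPM in the first and 1.20% ± 0.186 in the second (SD, n = 2), so it was a small part of the gene in both.

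**Figure D3:**
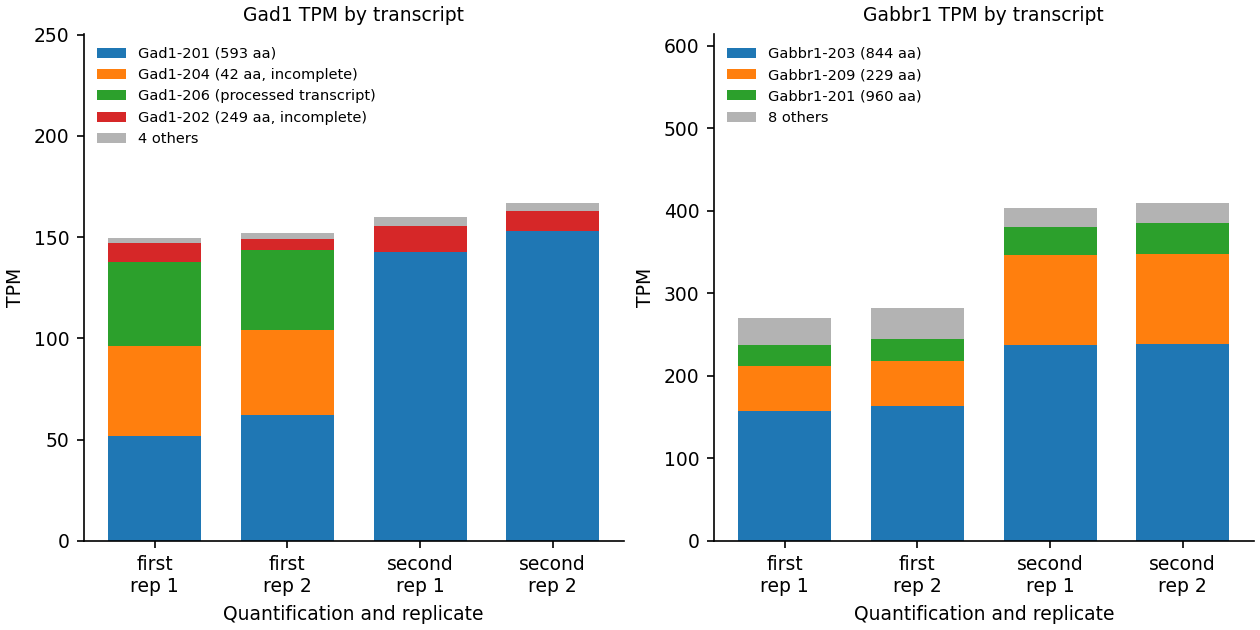
Stacked TPM of the Gad1 transcripts (left) and Gabbr1 transcripts (right) in each library of each quantification, from 0, with the encoded length in amino acids (aa) or the annotated type in the legend. The Gad1 columns are of like height, between 149.6 and 167 TPM, but Gad1-201 fills 34.6% and 40.9% of them in the first quantification and 89.0% and 91.6% in the second, while Gabbr1-203 keeps 58.0% and 58.6% of the Gabbr1 columns.

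The authors' interval of TPM for Gad1-201 ran from 44.3 to 55.7 in replicate 1 and from 51.8 to 66.9 in replicate 2, so the libraries overlapped within it. By contrast, Gad2 was split alike in both tables. Its 585-amino-acid transcript Gad2-201 had 29.5 and 33.6 TPM, 88.9% ± 2.05 of the gene, and 86.3% ± 0.721 in the second quantification. The other Gad2 transcript, the processed transcript Gad2-202 of 721 bases, held the remaining 11.1% in the first and 13.7% in the second.

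Among the 6 of the 8 genes with several annotated transcripts, none had another leading transcript in the second quantification than in the first; over 11474 protein-coding genes with several transcripts and at least 1 TPM, 23.6% did. Gad1 was the 1 of those 6 with at least 25% of its TPM in transcripts not annotated as protein coding, in the first quantification, with 28.2% and 26.8%. Of the same 11474 genes, 30.4% passed that level. In the second quantification the share of Gad1 was 1.52% and 1.47%, and none of the 6 passed.

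Slc32a1 encodes the vesicular GABA transporter, which loads GABA into the vesicles of inhibitory neurons. Its single transcript, of 525 amino acids (ENSMUSG00000037771.11, chr2:158610767-158615748, plus strand), had 28.1 and 30.2 TPM from 1900 and 1880 counts. Against all Gad1 transcripts its level was 0.193 ± 0.00780 times as high, and against full-length Gad1 it was 0.514 ± 0.0399 times in the first and 0.307 ± 0.00109 times in the second quantification. Against full-length Gad2 it stood at 0.925 ± 0.0360 times in the first and 0.942 ± 0.0272 times in the second, so that this pair kept nearly equal levels whichever table was read. An antisense gene, Gm14205, shares 697 exonic bases with it on the other strand and had 0 and 3 counts.

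Of the transporters that clear GABA from the extracellular space, Slc6a11 encodes the one known mainly from astrocytes. Nearly all of its level was in the 627-amino-acid transcript Slc6a11-201, with 99.5% ± 0.111 in the first and 99.2% ± 0.131 in the second quantification (ENSMUSG00000030307.8, chr6:114131241-114249952, plus strand). Its level was 34.1 and 35.4 TPM from 3445 and 3275 counts, and 1.61 times as high in the second quantification. Slc6a13, known from the meninges and vessels, had 3.52 and 2.25 TPM from 160 and 89 counts, a log2 ratio of -0.77 for replicate 2 over replicate 1 (95% counting interval -1.16 to -0.39). Slc6a12 had 0.92 and 0.40 TPM from 22 and 11 counts. Neither of these last genes reached a mean of 5 CPM, the minimum for comparing libraries. In the meninges list, 4 of 5 markers were also lower in replicate 2 after TMM scaling, with Igf2 the exception at a log2 ratio of 0.44. Among the 4, Dcn was nearly level, at -0.0034 (interval -0.149 to 0.142). Of the 4 meninges markers with a mean of at least 5 CPM, 1 was at least 25% higher in replicate 1 and 1 in replicate 2. The part of meningeal tissue in the Slc6a13 difference was not tested.

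The list of genes for glutamate supply and the cofactor gives the setting of synthesis. All 9 had at least 1 TPM, with a median of 53.8 TPM against 45.2 TPM for the 8 GABA genes. Glul, the astrocytic glutamine synthetase, was far the highest with 816 and 852 TPM. Glud1, glutamate dehydrogenase, had 117 and 122 TPM. That was below the Gad1 sum over all transcripts but above full-length Gad1, and in the second quantification Glud1 was above the Gad1 sum, with 204 and 225 TPM against 160.1 and 167 TPM.

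Abat encodes GABA transaminase, the first step of breakdown, and its level was above that of Aldh5a1, the succinate semialdehyde dehydrogenase that completes it. Abat had 53.0 and 56.9 TPM and Aldh5a1 24.5 and 26.7 TPM, with no overlap. Within libraries Abat was 2.15 ± 0.0240 times Aldh5a1 (SD, n = 2), and 2.24 ± 0.0125 times in the second quantification. Full-length transcripts gave 2.13 ± 0.0383 and 2.22 ± 0.0186 times. Abat-201, of 500 amino acids, held 93.7% ± 0.513 of Abat and 94.95% ± 1.71 in the second quantification, and Abat-203, of 444 amino acids, held 5.13% ± 0.163 and 4.13% ± 1.43. Abat (ENSMUSG00000057880.12) lies at chr16:8513429-8621568 on the plus strand, and Aldh5a1 (ENSMUSG00000035936.6), with a single transcript of 523 amino acids, at chr13:24907579-24937661 on the minus strand.

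Antisense partners of Aldh5a1 had few reads. The non-coding gene 9330162012Rik shares 203 exonic bases with it on the other strand and had 86 and 78 counts, against 3406 and 3410 for Aldh5a1. A second one, 4932702P03Rik, shares 796 bases and had 5 and 3 counts. Other genes of this breakdown route and of semialdehyde metabolism were all detected, 8 of 8, at a median of 11.9 TPM. The highest were Ogdh, a subunit of the oxoglutarate dehydrogenase that the GABA route bypasses, with 83.7 and 88.6 TPM, Sucla2 with 60.2 and 63.9 TPM and Suclg1 with 53.5 and 54.1 TPM, both subunits of succinyl-CoA ligase. The lowest, Suclg2, which encodes its GTP-specific subunit, had 5.53 and 5.79 TPM.

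Gabbr1 (ENSMUSG00000024462.17, chr17:37045966-37075067, plus strand) was 3.31 ± 0.0965 times Gabbr2 (ENSMUSG00000039809.10, chr4:46662305-46991873, minus strand) over all transcripts. Part of the excess lay in transcripts that do not encode a whole receptor subunit. Counting the 960- and 844-amino-acid forms against the 940-amino-acid Gabbr2-201, the ratio was 2.25 ± 0.0802 in the first quantification and 2.15 ± 0.0810 in the second. Gabbr2 had almost nothing but its full-length transcript, 98.7% ± 0.0428 and 98.3% ± 0.483. The receptor holds the subunits in equal number, while the RNA of Gabbr1 receptor forms was above that of Gabbr2 in both libraries of both tables.

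The short-start form, GABA-B1b, led Gabbr1. Gabbr1-203 had 157 and 163 TPM, 58.0% ± 0.292 of the gene, and 58.6% ± 0.306 in the second quantification. Gabbr1-201, the GABA-B1a form, which carries the sushi domains known to direct the receptor to axons, had 25.2 and 25.9 TPM, 9.24% ± 0.109 and 8.80% ± 0.540. The short form was thus 6.28 ± 0.0427 times the long form, and 6.67 ± 0.444 times in the second quantification. By itself the short form was 1.94 ± 0.0674 times Gabbr2-201 in the first and 1.87 ± 0.0866 times in the second. The 2 receptor forms differ in length and in the exons shown above. Found in no other Gabbr1 transcript are 817 bases of Gabbr1-201 and 43 bases of Gabbr1-203, all of them outside the coding sequence. The coding bases that set the long form apart from the short form also lie in other annotated Gabbr1 transcripts. Of Gabbr1-201, 69.9% is shared with Gabbr1-203, so reads from the shared part fit both.

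Transcripts annotated with the early-ending 229-amino-acid product had more TPM than the long receptor form. They are Gabbr1-209 and Gabbr1-202, which together had 64.8 and 65.9 TPM in the first quantification, 23.6% ± 0.451 of Gabbr1, and 108.8 and 108.4 TPM in the second, 26.7% ± 0.344. Against the long form that was 2.56 ± 0.0186 times and 3.04 ± 0.226 times. Gabbr1-209 alone held 19.9% ± 0.403 in the first and 26.7% ± 0.344 in the second, where Gabbr1-202 was listed at 0. The 1595 bases of Gabbr1-209 share none with the short-start form, but 0 of them are found in Gabbr1-209 alone. With the long form, Gabbr1-209 shares the 472 coding bases given above, so reads from that part fit both. For Gabbr1-202, 127 bases are found in no other Gabbr1 transcript. The last exon of both runs into what is intron in the long form. What part unspliced Gabbr1 RNA had in their levels was not tested.

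**Figure D4:**
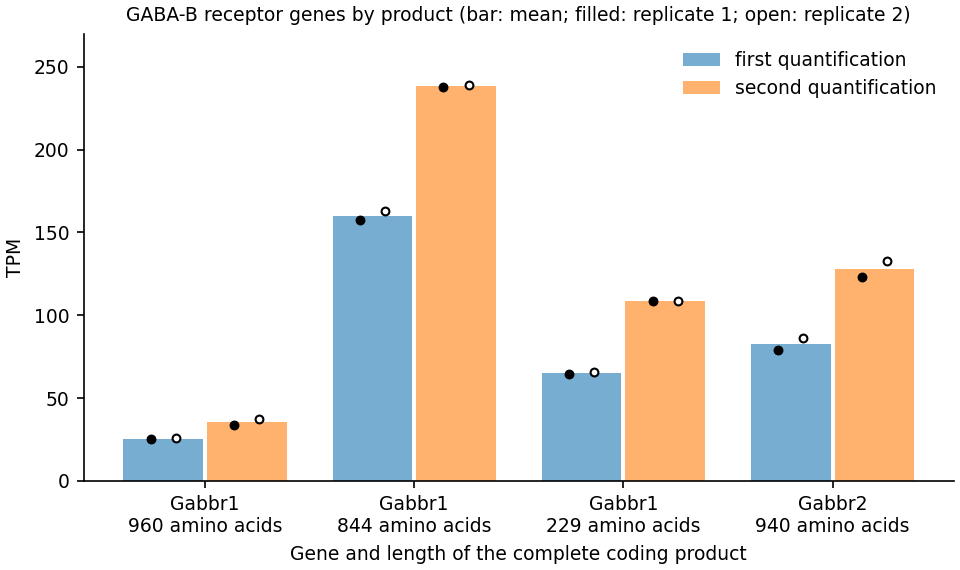
TPM of the complete coding products of Gabbr1 (960, 844 and 229 amino acids) and of Gabbr2 (940 amino acids), with bars from 0 for the mean of 2 libraries and points for replicate 1 (filled) and replicate 2 (open). In both quantifications the 844-amino-acid form is highest, Gabbr2 second, then the 229-amino-acid product, with the 960-amino-acid form lowest, and no library of one overlaps another within a quantification.

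The proteins that sit with the receptor were all detected at RNA level, 6 of 6, at a median of 26.7 TPM. Kctd12 and Kctd16, cytosolic subunits that set the speed of the receptor's response, had 49.6 and 52.7 TPM and 31.3 and 33.2 TPM, while their relatives Kctd8, with 2.35 and 2.51 TPM, and Kctd12b, with 1.31 and 1.17 TPM, were low. Pianp had 66.1 and 70.4 TPM and Ajap1 20.1 and 22.2 TPM; both encode membrane proteins that bind the sushi domains of GABA-B1a. Pianp was thus above the 25.2 and 25.9 TPM of the long Gabbr1 form in both libraries. The place of Ajap1 beside that form turned with the table: it was below it in the first quantification, and above it in the second, with 39.5 and 48.1 TPM against 34.0 and 37.6 TPM.

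Downstream of the receptor, all 9 effector genes had at least 1 TPM, at a median of 47.2 TPM. Gnao1, the G protein alpha subunit abundant in neurons, had 267 and 282 TPM, overlapping the sum over Gabbr1 transcripts in the first quantification. In the second there was no overlap, with 609.6 and 633 TPM for Gnao1 against 404 and 409.8 TPM for Gabbr1. The inhibitory alpha subunits followed, Gnai2 with 90.03 and 98.0 TPM and Gnai1 with 69.1 and 74.8 TPM. Of the inward rectifier potassium channel genes that the receptor opens, Kcnj3 had 47.3 and 47.1 TPM, Kcnj6 46.0 and 43.7 TPM and Kcnj9 27.8 and 28.2 TPM. Of the presynaptic calcium channel genes that it inhibits, Cacna1a had 72.4 and 67.9 TPM and Cacna1b 28.0 and 30.1 TPM. Rgs7, a regulator that shortens the G protein signal, had 31.7 and 32.8 TPM.

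Between the libraries, none of the 8 genes was at least 25% higher in one than in the other, and 2.00% of the 11417 genes with a mean of at least 5 CPM were. This is a description of 2 libraries: no p-value is given, since an exact sign-flip test of 2 values cannot go below 0.5. After TMM scaling of expected counts, the log2 ratio of replicate 2 over replicate 1 ran from 0.0014 for Gabbr1 (95% counting interval -0.026 to 0.029) to 0.13 for Gad2 (0.07 to 0.19). The median of the 8 genes was 0.06 and that of all genes 0.01, with quartiles of -0.06 and 0.06. All 8 were above 0, where 53.4% of all genes were, but with spike-in (ERCC) scaling, which moved the median of all genes to -0.17, none of the 8 was above 0, and with DESeq2 size factors 6 were. The intervals of 4 genes lay wholly above 0 after TMM scaling, those of Gad2, Gabbr2, Aldh5a1 and Gad1, and those of Slc32a1, Abat, Slc6a11 and Gabbr1 included 0. These intervals cover counting error only, not other spread between libraries. The share of all genes with such intervals is not given, so the 4 are not set apart from other genes.

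**Figure D5:**
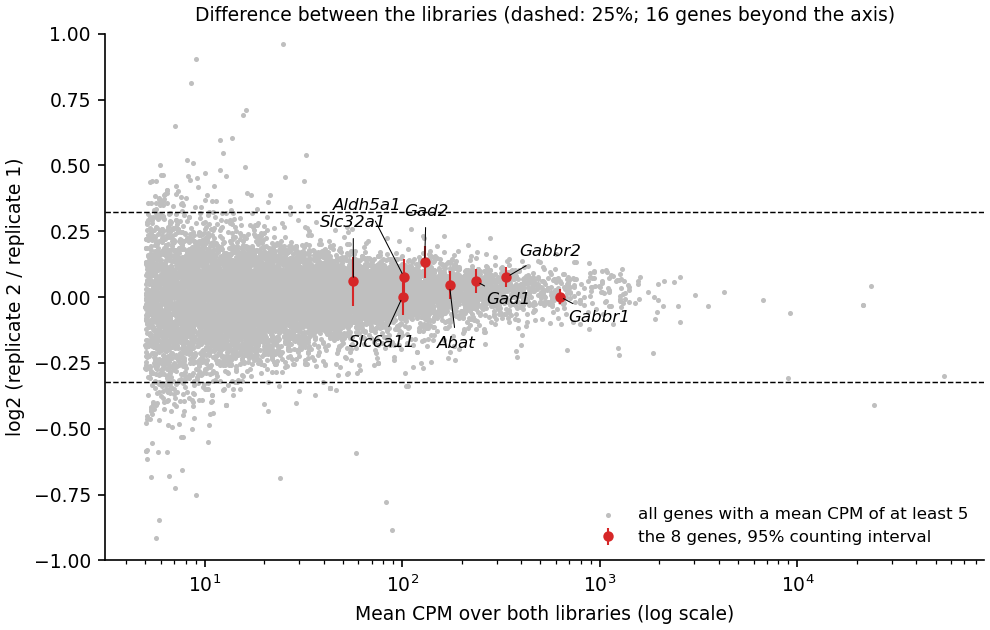
Log2 ratio of replicate 2 over replicate 1 after TMM scaling against mean CPM (log axis), for all genes with a mean of at least 5 CPM (grey) and the 8 genes (red, with the 95% counting interval); dashed lines mark a difference of 25%. The 8 genes lie between 0.0014 and 0.13, inside the dashed lines; 16 genes are beyond the axis.

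By the same scaling, 10 of 12 interneuron markers were also higher in replicate 2, while Lamp5 (log2 ratio -0.06) and Dlx6 (-0.11) were lower. Dlx5 and Dlx6 did not reach a mean of 5 CPM. All 12 markers summed to 568 and 632 TPM in replicates 1 and 2, with Cck alone at 258 and 284 TPM. Sst had a log2 ratio of 0.14 and Npy of 0.27, beside 0.13 for Gad2 and 0.06 for each of Gad1 and Slc32a1. Dlx1 and Reln were nearly level, at 0.02 and 0.03. Astrocyte markers summed to 1184 and 1209 TPM, with 3 of 6 higher in replicate 2, beside a log2 ratio of 0.0017 for Slc6a11. Of the excitatory neuron markers 3 of 4 were higher in replicate 2, with Slc17a7 at 0.08 and Neurod6 at 0.07, so a higher level there was not particular to interneuron markers. Of the hippocampal field markers 1 of 6 was higher in replicate 2. What part interneurons, choroid plexus or other tissue had in these differences was not tested. Of the lists of supply, breakdown and receptor partners, no gene with a mean of at least 5 CPM was at least 25% higher in one library: 9 genes of glutamate supply and cofactor, 8 genes of breakdown, 4 auxiliary proteins and 9 effectors were compared.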

How the data were processed

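The 2 libraries, each from 300 ng of RNA, were grouped by strain, sex, age and tissue, per the labels. Per the notes deposited with the files, reads were compared with mm10 and GENCODE M21. Tool names, versions and the use of strand were not given in the sources used here. The gene table and first transcript table, per the file headers, come from a transcriptome alignment, have the RSEM layout and give an expected count and TPM, with intervals of TPM; the second transcript table (from reads directly, kallisto layout) gives the authors' estimated count and TPM. The authors also deposited the percent of a gene held by each transcript and a score, the posterior SD of each expected count. Since mm10 is a C57BL/6J genome, CAST/EiJ reads can map less often, and the 2 alleles were not separated.

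Levels are deposited TPM; percents and within-library ratios were computed from them, as mean ± SD over 2 libraries. Products come from the annotated coding sequence, and sequences from GENCODE M21 transcripts. Expected counts, rounded to whole numbers, were scaled by TMM (edgeR 4.0.16, R 4.3.3) with a prior count of 0.5; ratios between libraries were counted from a mean CPM of at least 5. Intervals are 95% Clopper-Pearson intervals and the limit for a count of 0 is 3 counts. Neither covers more than counting error. The steps were tested on simulated data. Alternatives were the second table, protein-coding transcripts only, a pseudocount of 1 TPM, counts without length correction, posterior mean TPM, TPM rescaled to nuclear protein-coding genes, small transcripts left out, other minimums, DESeq2 1.42.0 size factors, spike-in scaling, TPM ratios and leaving out each replicate; full-length transcripts only was added after seeing the data. Named are all 8 genes, every listed transporter, auxiliary protein and effector, the 3 highest and the lowest of the other lists, and transcripts with at least 5% of a gene or its longest product, apart from some listed genes not reported here; marker genes and overlapping genes named, and Gad1-205 and Gabbr1-202, were chosen after their values were seen. The 8 genes and all lists were chosen with earlier results of these data known.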

Additional observations from a re-analysis of the deposited data

How the results depend on the processing

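None of the ratios between genes listed next changed direction under the alternatives run. Other comparisons described above did turn in the second quantification, among them Glud1 with the Gad1 sum, Ajap1 with the long Gabbr1 form, and full-length Gad1 with full-length Gabbr2. Gnao1, which overlapped the Gabbr1 sum in the first quantification, was above it in the second. The means of Gad2 and Slc6a11, whose libraries overlapped, changed places. Leaving out either replicate gives the other's value: a log2 ratio of 2.03 or 2.15 for Gad1 over Gad2, -2.33 or -2.41 for Slc32a1 over Gad1, 1.09 or 1.12 for Abat over Aldh5a1, and 1.70 or 1.76 for Gabbr1 over Gabbr2. Mean log2 ratios moved as follows. Gad1 over Gad2 (2.09) was 1.55 in the second quantification, 1.80 over protein-coding transcripts, 0.87 by counts without length correction, and 0.85 and 1.62 with full-length transcripts in the first and second. Slc32a1 over Gad1 (-2.37) was -1.85, -1.91, -2.07, -0.96 and -1.70 in the same order. Abat over Aldh5a1 (1.10) was 1.16 in the second quantification, 1.08 with a pseudocount of 1 TPM, 0.77 by counts, 1.13 by posterior mean TPM, and 1.09 and 1.15 with full-length transcripts; its SD between libraries was only 0.016. Gabbr1 over Gabbr2 (1.73) was 1.65 in the second quantification, 1.64 over protein-coding transcripts, 0.90 by counts, and 1.17 and 1.10 with full-length ones.

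In the second quantification the full-length share of Gad1 was 90.3% in place of 37.7%, and the count of genes with at least 25% of TPM outside protein-coding transcripts was 0 in place of 1. The 960-amino-acid share of Gabbr1 (9.24%) was 8.80% there and 9.50% with transcripts under 1% left out. The cause was not tested. The count of 0 genes at least 25% apart between libraries held under each scaling and minimum, while the percent of all genes past it ran from 0.45% at a minimum of 20 CPM to 18.7% with no minimum. No paired analysis was possible because there is 1 group. With 2 libraries, an SD is itself imprecise, and transcript shares rest on models that divide shared reads.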
